A study of Macaca fascicularis with 16 samples.

Results

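The 200 genes described here were those whose RNA level varied most between lung libraries of the same age and sex in the cynomolgus monkey (Macaca fascicularis), a macaque. They were chosen from 12126 genes that could enter the list, out of 27966 Ensembl identifiers in the count files. Counts were written as counts per 1000000 assigned counts (CPM). The 200 genes of highest mean CPM, 3 genes that separate the sexes and all genes under a mean of 5 CPM were left out. For each remaining gene the mean of each group was subtracted from log2(CPM + 1), and the 200 genes with the highest standard deviation (SD) of the 16 deviations were kept.

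Bulk RNA of lung was sequenced in 4 groups of 4 libraries, old females (OF1 to OF4), old males (OM1 to OM4), young females (YF1 to YF4) and young males (YM1 to YM4). No treatment or strain is named, and the labels give age only as old or young. Whether libraries of a group come from different animals is not stated, so p-values measure only how far these libraries differ, which may be technical.

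Lung tissue is built of alveolar epithelium, conducting airways lined by ciliated and secretory cells, blood vessels, connective tissue and resident immune cells. Bulk RNA sums over all of them, so the level of a gene used by 1 cell type follows how much of that cell type a piece of tissue holds as well as how strongly the cells express it. In these data fewer cells of a type and less RNA per cell cannot be told apart. Genes can also differ between individual animals through inherited differences, and immune genes through exposure to microbes.

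The identifiers could not be given names. The files do not pair them with symbols, and the gene table used here, with 40596 genes, matched 0 of them. The members are therefore described by identifier, level and pattern, and neither their functions nor the markers of the labelled tissue could be checked. Libraries held between 6529562 and 11718427 counts in genes. An earlier analysis of these data had set OF1 and OM3 apart, so results that rest on them are also given without them. Either OF1 or OM3 also held the highest level in most of the genes described here.

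The SD of the deviations chose the members and is given as a description. It ran from 1.31 to 2.95 log2 units in the 200 members, with a median of 1.59, against a median of 0.23 over the 12126 genes. The last gene inside the list, ENSMFAG00000037984, had an SD of 1.3074, and the first gene outside, ENSMFAG00000028459, had 1.3060. Both had the same pattern over libraries, with their highest levels in OF1 (31.1 and 39.6 CPM) and OM3 (25.1 and 41.2 CPM), so the limit did not fall at a break in the data. Counting error, estimated at the mean CPM of each group, was small beside these values. At the depth of these libraries it alone would give a median SD of 0.11 log2 units, and the measured SD was at least 7.53 times that estimate in every member. Libraries far below their group mean can have a larger counting error. The members were chosen for a high SD, so a high ratio was built in.

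The members were typically expressed at lower levels than the genes that could enter. Their mean CPM ran from 5.03 to 348 with a median of 16.9, against a median of 33.4 over all genes that could enter. Low expression was more common among them, with 56% at 20 CPM or less against 32.6% of all genes that could enter. Some members passed the level limit through a few libraries: 138 of 200 still had a mean of 5 CPM or more without OF1 and OM3, and 104 had a median of 5 CPM or more over the 16 libraries.

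**Figure D1:**
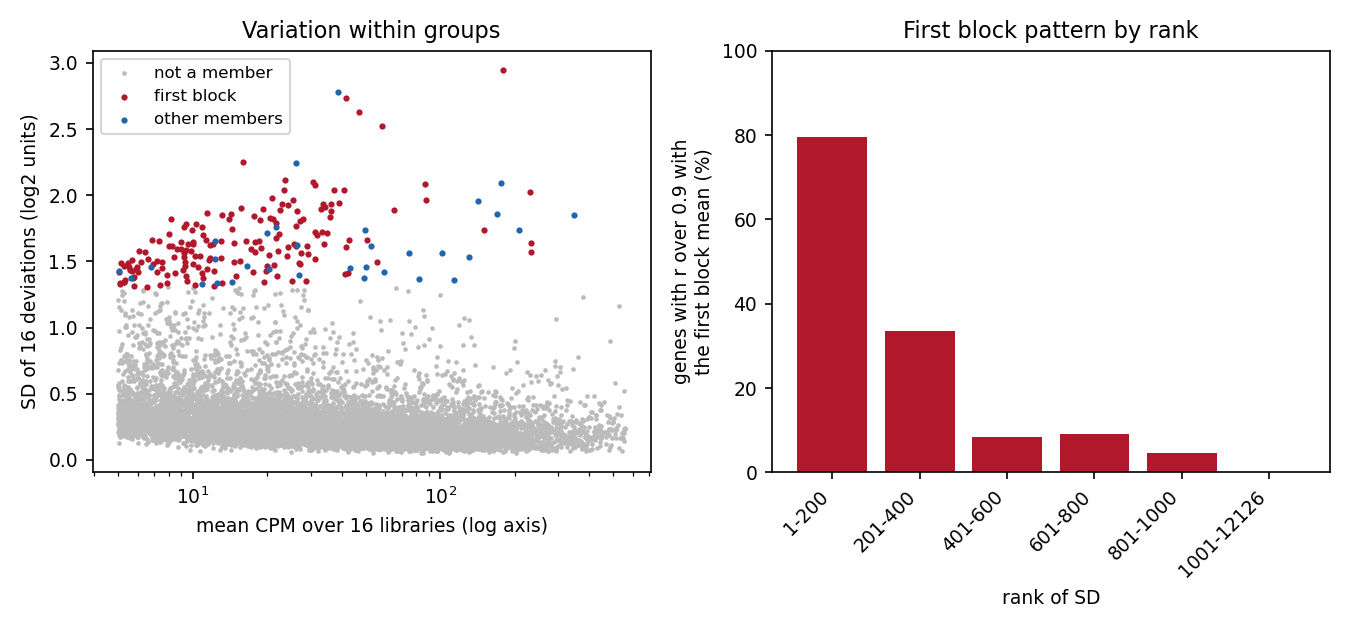
Left, the SD of the 16 within-group deviations (log2 units) against the mean CPM (log axis) for each of the 12126 genes, with the 168 members of the largest block in red, the other 32 members in blue and all other genes in grey. Right, the percentage of genes in each range of SD rank whose deviations correlated at r over 0.9 with the mean of the largest block, which was 79.5% among ranks 1 to 200 and 33.5% among ranks 201 to 400.

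Most of the members were high in the same libraries and low in the same libraries. Clustering on the correlation of their deviations put 168 of the 200 (84%) in 1 block and 9 in a second block, while the other 23 fell into groups of at most 3 genes. The first block held 84.3% of the sum of squared deviations of all members. The mean correlation between pairs of its genes was 0.93 over the 16 deviations, against 0.01 between all pairs of the 12126 genes. All these genes were measured in the same libraries, and the members were chosen on the same deviations, so these coefficients describe the list and are no test. Each of the 168 correlated with the mean of the block at 0.64 or more, and 159 of them did so above 0.9.

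**Figure D2:**
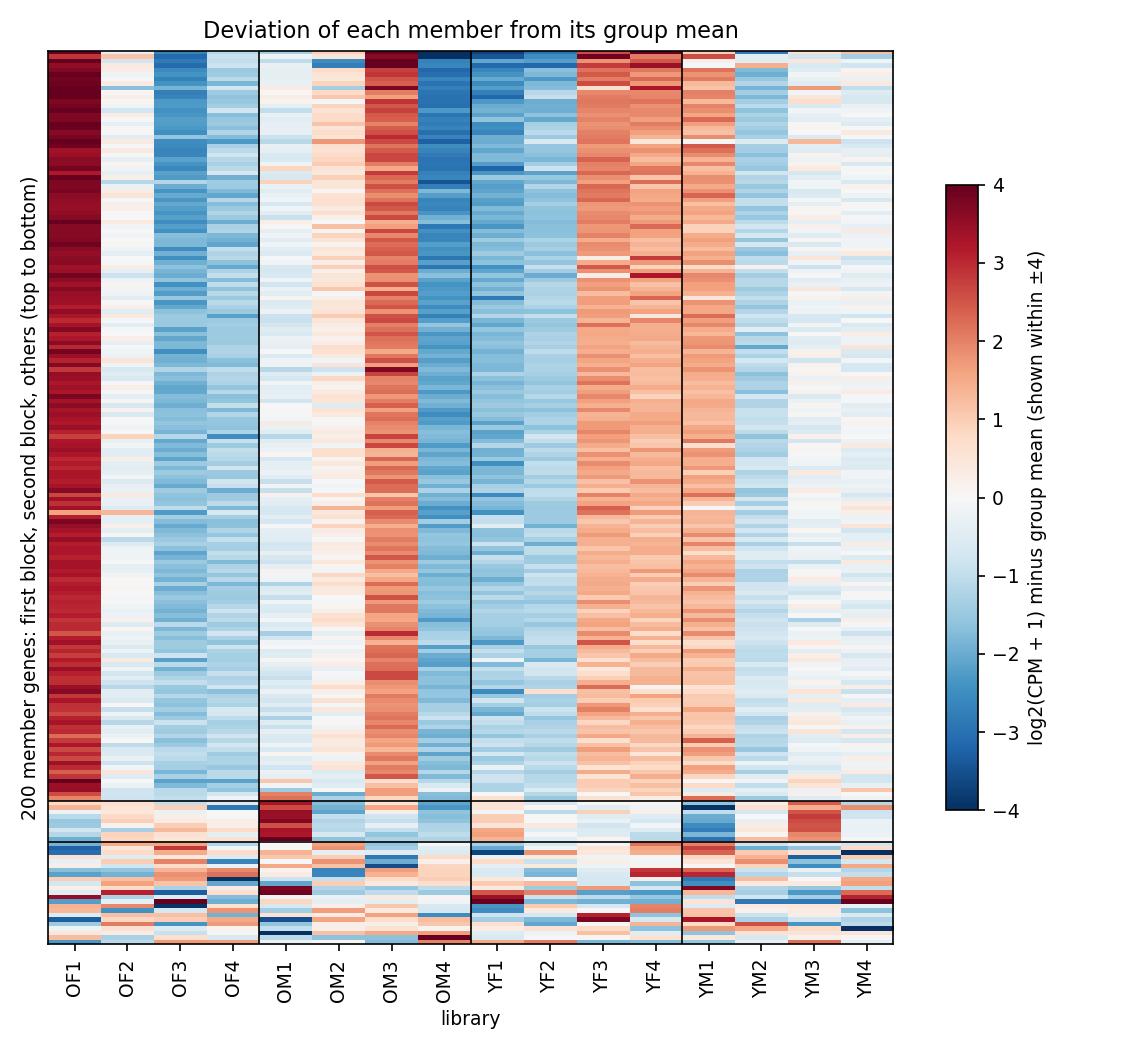
Deviation of log2(CPM + 1) from the group mean for each of the 200 members (rows) in each of the 16 libraries (columns), with colours limited to ±4 log2 units. In 157 of the 168 genes of the first block OF1, OM3 and YM1 are the highest of their groups and YF3 and YF4 lie above YF1 and YF2. Of the 9 genes of the second block, 8 have their highest CPM of the 16 libraries in OM1. YM3 is the highest young male in 8 of the 9.

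The order of the libraries in the first block was nearly the same from gene to gene. Among old females the median level over the 168 genes was 89.4 CPM in OF1, 7.41 CPM in OF2, 2.83 CPM in OF4 and 1.52 CPM in OF3. Among old males it was 37.6 CPM in OM3, 9.92 CPM in OM2, 5.70 CPM in OM1 and 0.980 CPM in OM4. In old lungs of either sex 1 library thus lay far above the others, and the lowest had a median of 1.52 CPM or less.

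Young lungs spread in the same way over a narrower range. Among young females the median level over the 168 genes was 19.6 CPM in YF3 and 15.6 CPM in YF4, against 1.5 CPM in YF2 and 0.832 CPM in YF1. Among young males it was 13.4 CPM in YM1, 3.97 CPM in YM3, 3.90 CPM in YM4 and 1.71 CPM in YM2. Young females thus formed a high pair and a low pair, while YM1 stood alone above the other young males.

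Counted gene by gene, OF1 was the highest old female library in all 168 genes, OM3 the highest old male in 165 and YM1 the highest young male in 160. Both YF3 and YF4 lay above YF1 and YF2 in 165 genes, and 157 of the 168 had all of these features together. The median over genes of the ratio of OF1 to the middle value of the other old females was 34.6. The same ratio was 7.17 for OM3 and 4.50 for YM1, and the ratio of the mean of YF3 and YF4 to the mean of YF1 and YF2 was 14.3. Over all 16 libraries, OF1 or OM3 held the highest level in 167 of the 168 genes.

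As a share of all assigned counts, the 168 genes took 2.56% in OF1 and 1.35% in OM3. The share was 0.534% in YF3, 0.498% in YF4 and 0.386% in YM1, and it lay between 0.0340% (YF1) and 0.298% (OM2) in the other 11 libraries. Over all libraries depth did not follow this order. Within old females and within young males, however, the block was higher the fewer counts a library held. Old females held 6817068 (OF1), 7089765 (OF2), 9708187 (OF4) and 10823845 (OF3). Young males held 6529562 (YM1), 7925786 (YM3), 8461501 (YM4) and 11718427 (YM2). Old males and young females did not have this order, and OM3, YF3 and YF4 held 10670475, 9542603 and 10210290. A part played by depth was not tested. The low libraries OM4 and YF1 held 9182764 and 9617486. The percentage of counts assigned to no feature was 24.4% in OF1 and 23.1% in OM3, but 29.9% in YM1 and 28.1% in YF4, within a range of 23.1% to 29.9% over all libraries.

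**Figure D3:**
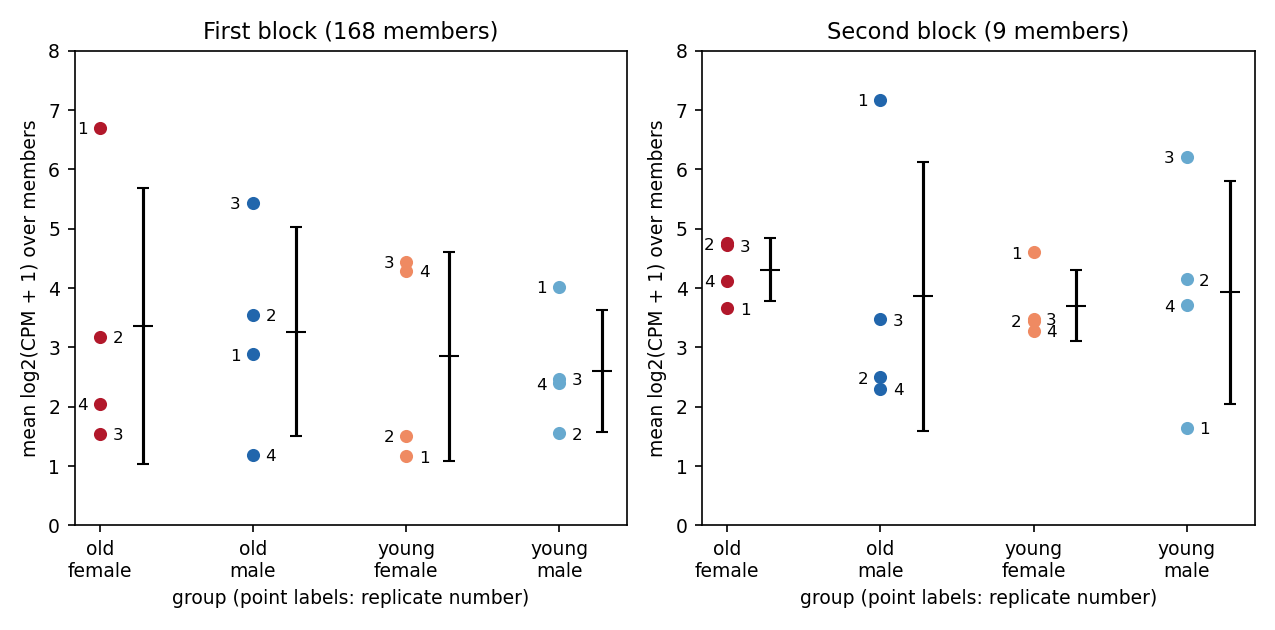
Mean log2(CPM + 1) over the 168 genes of the first block (left) and the 9 genes of the second block (right), 1 point per library labelled with its replicate number, with the group mean and SD (n = 4) as bars. In the first block the old and young groups overlap, and OF1 (6.70) and OM3 (5.44) are the highest points. In the second block OM1 (7.17) and YM3 (6.21) are the highest.

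ENSMFAG00000032445 had the closest match to the mean of the first block (r = 0.996 over 16 deviations). Its level was 48.8, 3.10, 0.554 and 0.824 CPM in OF1 to OF4 and 3.5, 5.35, 22.5 and 0.762 CPM in OM1 to OM4. In young animals it was 0.416, 0.846, 10.2 and 10.2 CPM in YF1 to YF4 and 8.58, 1.19, 2.27 and 1.89 CPM in YM1 to YM4. Each of the 4 groups covered low and high values, and old and young libraries overlapped.

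ENSMFAG00000032283 came next (r = 0.995). It had 78.5 CPM in OF1 against 1.94 to 9.73 CPM in the other old females, and 23.3 CPM in OM3 against 1.09 to 5.71 CPM in the other old males. In YF3, YF4 and YM1 it had 11.4, 13.5 and 10.7 CPM. The other 5 young libraries lay between 0.832 and 4.16 CPM. OF1, OM3, YF3, YF4 and YM1 were thus the highest in both leading genes, though 9.73 CPM in an old female came near to YM1. Both genes were picked for their match to the block mean, so this agreement was built in.

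The member with the highest SD of all, ENSMFAG00000036542, also belonged to the first block but covered a wider range. Its level was 547, 22.7, 3.79 and 12.7 CPM in OF1 to OF4 and 19.0, 97.6, 1568 and 1.20 CPM in OM1 to OM4. It was 0.728, 1.88, 137 and 372 CPM in YF1 to YF4 and 26.8, 1.02, 21.6 and 32.3 CPM in YM1 to YM4. In this gene OM3 lay above OF1, and YM1 did not stand above the other young males. For a change of 1 log2 unit in the mean of the block it moved by 1.73 log2 units, the steepest slope among the 168 genes, whose slopes ran from 0.53 to 1.73 with a median of 0.99.

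After the common pattern was taken out of the first block, with a slope for each gene, 6.81% of its sum of squares remained. In that remainder 16 genes clustered together, and no other group held more than 7. The 16 were lower in OM3 (-0.68 log2 units) and YF1 (-0.43) than the block mean would give, and higher in OM2 (0.47) and OM1 (0.37). The first block is thus nearly 1 pattern with different amplitudes, and the mean departure of these 16 genes was less than 1 log2 unit in every library.

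The pattern of the first block did not stop at the limit of the list. Among the 12126 genes, 281 correlated with its mean above 0.9 and 516 above 0.8. The percentage above 0.9 was 79.5% in SD ranks 1 to 200, 33.5% in ranks 201 to 400, 8.5% in ranks 401 to 600 and 0.0989% beyond rank 1000. Opposite patterns were few, with 11 genes under -0.8. Of the 200 most abundant genes, which the rule leaves out, 3 correlated above 0.8 and 2 had an SD above the limit.

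One member, ENSMFAG00000030611, ran against the first block (r = -0.863). It was named after its values were seen. Its level was highest in OF3 (96.9 CPM), OF4 (93.8 CPM) and OM4 (73.1 CPM), where the first block was low, and 4.99 CPM in OF1 and 4.59 CPM in OM3. In young females it was 29.1 and 42.7 CPM in YF1 and YF2 against 1.99 and 2.15 CPM in YF3 and YF4, and in YM1 it was 0.613 CPM. YM2 was an exception, low both in this gene (2.82 CPM) and in the block.

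The correlation within the first block was also computed in parts of the data. The genes were chosen and clustered on the same deviations, so these values are again a description. Without OF1 and OM3 the mean correlation between pairs of the 168 genes was 0.89, against 0.01 over all genes. Computed in the 8 old libraries it was 0.95 and in the 8 young libraries 0.91, and it was 0.96 in females and 0.90 in males.

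The choice of genes was repeated in old and in young libraries alone, which share no library. Of the 200 genes chosen in the 8 old libraries, 122 (61%) were also among the 200 chosen in the 8 young ones, where 200 genes are 1.67% of those that could enter. Of the 122, 105 belonged to the first block. The lists from females and from males shared 123 genes (61.5% of each). Without OF1 and OM3 the old and young lists shared 97 genes (48.5% of each), of which 51 belonged to the first block.

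OF1, more than OM3, set much of the size of the variation. Together OF1 and OM3 held 35.1% of the sum of squared deviations of the members, against 27.5% of that of all 12126 genes. OF1 alone held 23.9%, against 17.2% over all these genes. OM3 held 11.1% against 10.3%, and OM4 held 10.2% of that of the members. In 163 of the 200 members OF1 lay farther from its group mean than any other library did. The same count was not made over all genes. The members were ranked on these deviations, so these values describe the list. When the list was chosen without both libraries, 127 of the 200 members were chosen again, and 150 when the same 12126 genes could enter. With the limit of 5 CPM set anew, it was 157 without OF1 and 180 without OM3, and at least 187 without any other single library.

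The spread within old groups was larger than within young ones for most members, and the counts fell without OF1 or OM3. The SD over 4 libraries was larger in old than in young females for 181 of 200 members and in old than in young males for 183 of 200. Over all 12126 genes the shares were 63.2% and 53.7%. Without OF1 the count in females was 17 of 200 (45.6% of all genes), and without OM3 the count in males was 127 of 200 (37.3% of all genes). In females the larger spread of the old group was thus not seen without OF1. In males 63.5% of the members still had it without OM3. OF1 and OM3 lay far from their group means in most members. Leaving them out on the old side only therefore tends to lower the old spread, and the falls are no test. These counts are a description, since the same deviations chose the members.

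The second block held 9 genes, fewer than the 10 laid down as the least size to describe, and was taken up after its values were seen. It varied in males. Its mean pairwise correlation was 0.79, and its mean had a correlation of -0.24 with that of the first block. OM1 was the highest of the 16 libraries in 8 of the 9 genes, YM3 the highest young male in 8 and YM1 the lowest young male in all 9. The median ratio of OM1 to the middle value of the other old males was 38.6, and that of YM3 to the other young males was 8.18. In females the block was steady by comparison, with a mean log2(CPM + 1) of 4.31 ± 0.53 in old and 3.70 ± 0.60 in young animals, against 3.86 ± 2.27 in old and 3.93 ± 1.88 in young males (SD, n = 4 each).

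The genes nearest to the mean of the second block, ENSMFAG00000040359 and ENSMFAG00000030746, were named after its values were seen. ENSMFAG00000040359 had 105, 3.92, 4.50 and 1.96 CPM in OM1 to OM4 and 1.07, 7.25, 56.3 and 3.78 CPM in YM1 to YM4, against 4.31 to 21.7 CPM in the 8 female libraries. ENSMFAG00000030746 had 99.4 CPM in OM1 and 34.9 CPM in YM3, while the other 14 libraries lay between 0.459 and 15.1 CPM. Both genes were thus high in the same pair of male libraries, which their choice by closeness to the block mean built in. Only 6 further genes of the 12126 correlated with the mean of this block above 0.9, so this pattern was shared by far fewer genes than the first.

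Many of the members outside the first block had separate low and high levels. The largest gap between neighbouring libraries, on the log2(CPM + 1) scale, was at least 2 log2 units in 16 of these 32 genes, against 24 of the 168 first block genes and 57 of all 12126. Of the 57, 40 were members. The members were chosen for a high SD of the same values, which favours large gaps, so the share over all genes is no test. In 11 of the 16 there were at least 2 libraries on each side of the gap, against 3 of the 24. All the genes named in this and the next paragraph, apart from ENSMFAG00000042602, were picked after their values were seen.

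ENSMFAG00000043057 split the libraries into 8 low and 8 high. Old animals had 15.1 CPM in OF1 and 13.5 CPM in OM1, but 279, 311 and 456 CPM in OF2 to OF4 and 490.3, 272 and 387 CPM in OM2 to OM4. Young animals had 4.32 to 16.1 CPM, except 242 CPM in YF3 and 281 CPM in YM1. ENSMFAG00000037799 and ENSMFAG00000003180 shared another split. ENSMFAG00000037799 had 234 to 493 CPM in OF3, OF4, OM1, OM3, OM4, YF4 and YM1 and 15.1 to 36.8 CPM in the other 9 libraries. ENSMFAG00000003180 had 12.8 to 38.3 CPM in the same 7 libraries and 0.564 to 2.62 CPM in the other 9. The high set held 6 of 8 old and 2 of 8 young libraries in the first of these genes, and 5 of 8 old and 2 of 8 young in the other pair.

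ENSMFAG00000036866 and ENSMFAG00000027000 were low in the same pair of male libraries. ENSMFAG00000036866 had 2.72 CPM in OM3 and 8.45 CPM in YM3, against 42.2 to 151 CPM in the other 14. ENSMFAG00000027000 had 2 counts (0.187 CPM) in OM3 and 0 in YM3, against 7.69 to 24.6 CPM elsewhere. ENSMFAG00000042602, the member with the second highest SD, had 151 CPM in OF3, 187 CPM in YF1 and 262 CPM in YM4. It had 9.34 CPM in YM1, 4.23 CPM in OF2 and 1.38 CPM or less in the other 11 libraries, of which OM2, OM3, YF3, YF4, YM2 and YM3 held 0 counts. The high libraries of this gene thus came from 3 groups, 1 library in each.

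**Figure D4:**
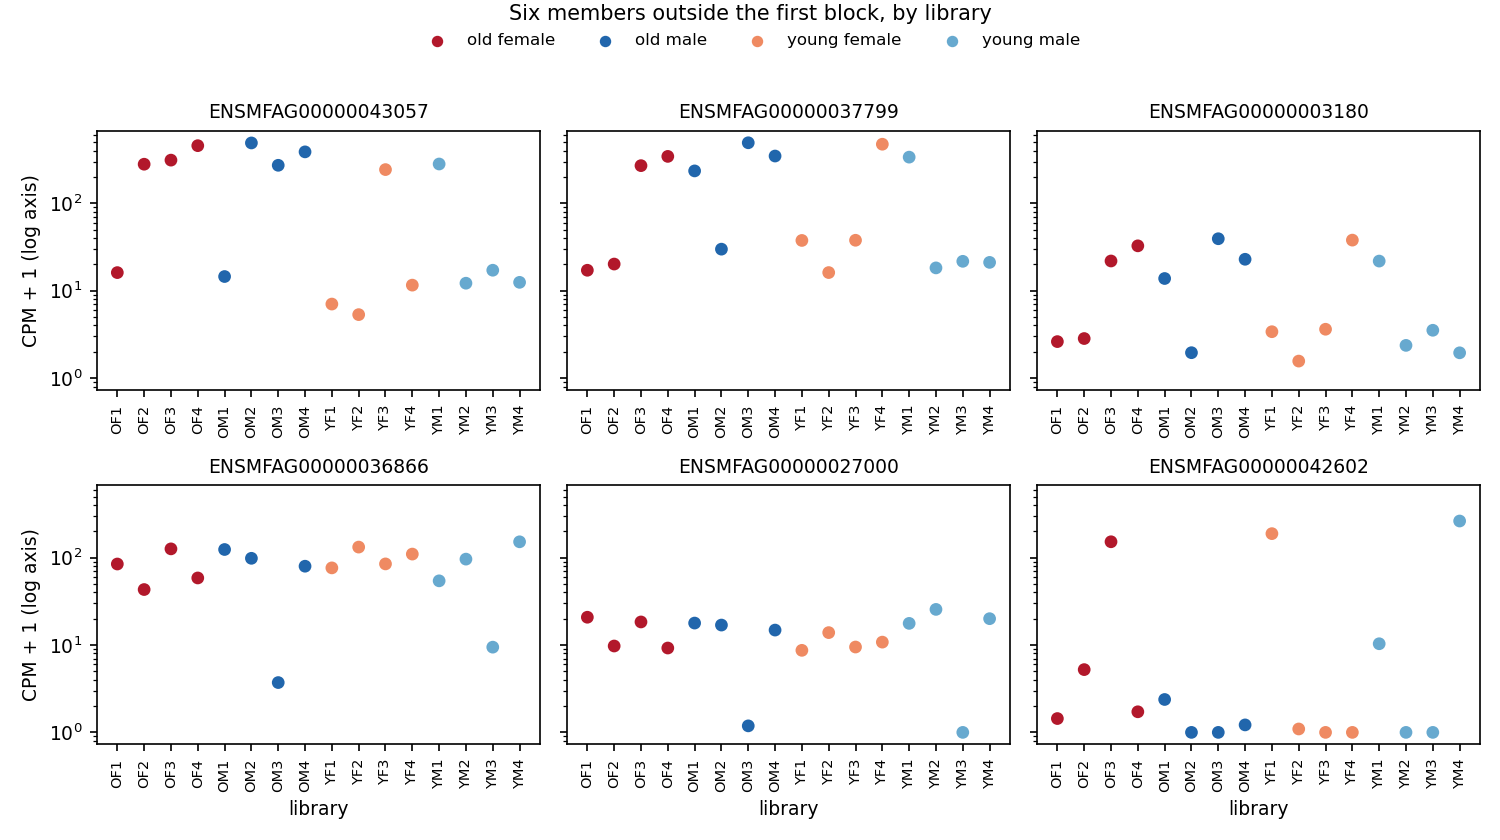
CPM + 1 (log axis) of 6 members outside the first block in each of the 16 libraries, coloured by group. ENSMFAG00000043057, ENSMFAG00000037799 and ENSMFAG00000003180 have a low and a high set of libraries that each hold old and young animals of both sexes. ENSMFAG00000036866 and ENSMFAG00000027000 are low in OM3 and YM3, and ENSMFAG00000042602 is high in OF3, YF1 and YM4.

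Old and young lungs were compared to ask whether the members differ with age. The ranking of the members used deviations within groups and not the group means. High values in OF1 and OM3 did help genes past the limit of 5 CPM, and the spread that chose the members also enters the error of the test. Of the 200 members, all of which had enough counts to be tested, edgeR's quasi-likelihood test called 0 at an adjusted p under 0.05, where 0.0582% of the 15472 genes tested were called. At an unadjusted p under 0.05 there were 5 members (2.5%), 4 higher and 1 lower in old lungs, against 17.7% of all genes tested. DESeq2 gave a p to 189 of the 200 members and called 0 of them, where it called 4.06% of the 14517 genes to which it gave an adjusted p. It had 14 members at an unadjusted p under 0.05, against 19.1% of the 15412 genes with a p. In every comparison below, DESeq2 shares of all genes called are of genes with an adjusted p. Those at an unadjusted p are of genes with a p. The 11 members without a DESeq2 p include ENSMFAG00000044253, ENSMFAG00000003903, ENSMFAG00000042602 and ENSMFAG00000020465, which are described with the comparisons. The old and young libraries overlapped in each of the 200 members. Over all genes tested 0.317% had no overlap, so 0 of 200 is near that share. The choice for wide spread within groups also makes overlap likely.

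The standard errors of the members were large. Their median was 0.97 log2 units against 0.15 over all genes tested, and the members had been chosen for spread within groups. An age difference of 1 log2 unit is thus about 1 standard error for a typical member. The median log2 fold change of the members, old against young, was 1.30, against 0.01 over all genes tested. All 168 first block genes were higher in old lungs and 23 of the other 32 were, against 51.3% of all genes tested. Only 106 of the 168 kept a mean of 5 CPM or more without OF1 and OM3. The level limit thus favoured genes that are high in these old libraries. The 168 share 1 pattern over libraries, so they are not 168 separate observations.

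That direction was reversed without OF1 and OM3. One of these libraries held the highest level in 167 of the 168 genes, so leaving them out had to lower the old side. The values without them are thus a description and no test. Over all libraries the mean log2(CPM + 1) of the first block was 3.32 ± 1.91 for old lungs and 2.73 ± 1.34 for young lungs (SD, n = 8 each), a difference smaller than the spread. Without OF1 and OM3 it was 2.40 ± 0.95 in old libraries (SD, n = 6), below the young mean. The median log2 fold change of the members was then -0.63 (0.018 without OF1 alone), and 8 of the 168 first block genes were higher in old lungs. The 32 other members had a median of 0.65 in all libraries and 0.57 without OF1 and OM3.

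**Figure D5:**
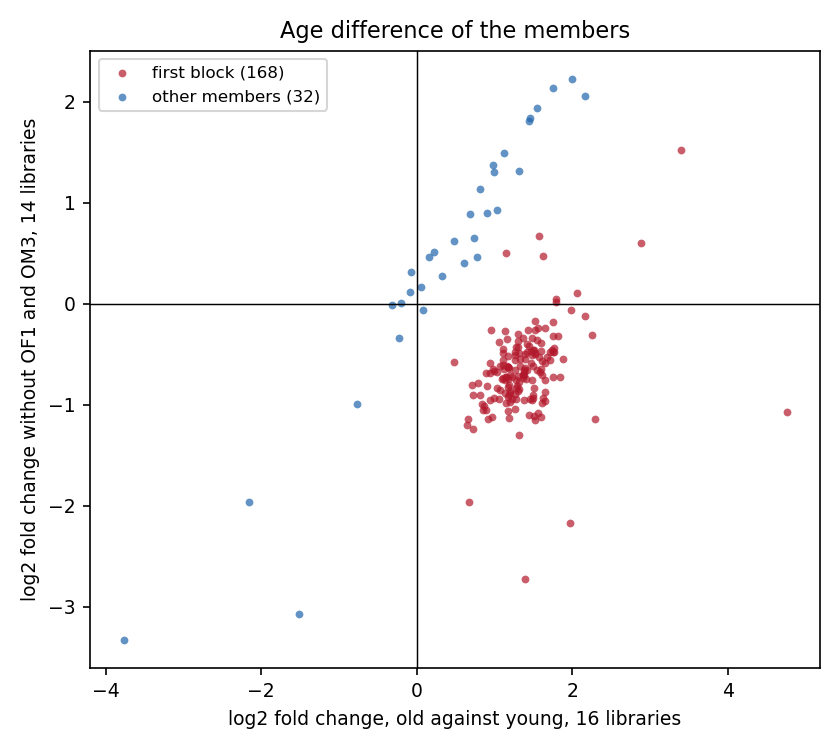
Log2 fold change of old against young lungs for each of the 200 members, with all 16 libraries (x axis) and without OF1 and OM3 (y axis), from edgeR. The 168 first block genes (red) are all above 0 on the x axis and 8 of them are above 0 on the y axis, while of the 32 other members (blue) 23 are above 0 on the x axis and 25 on the y axis.

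Among the members higher in old lungs, ENSMFAG00000044253 had the smallest p. Its level was 320.2, 15.5, 2.77 and 2.78 CPM in OF1 to OF4 and 12.1, 3.09, 8.90 and 1.85 CPM in OM1 to OM4. It was 1.04, 0.658, 6.50 and 5.68 CPM in YF1 to YF4 and 1.23, 1.02, 3.15 and 0.355 CPM in YM1 to YM4. OF1, OF2, OM1 and OM3 lay above all young libraries, and the other 4 old libraries lay within the young range. Old lungs were higher by 3.40 log2 units (SE 1.02, edgeR adjusted p = 0.128), and by 1.63 without OF1 (edgeR adjusted p = 0.256).

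ENSMFAG00000003868 had the smallest p among the members lower in old lungs. It had 0.370 to 33.8 CPM in the 8 old libraries, with 1.61, 28.8, 0.370 and 21.9 CPM in OF1 to OF4. Young females had 172, 24.4, 111 and 278 CPM, and young males 27.3, 96.7, 2.27 and 6.97 CPM. The high values were thus those of YF1, YF3, YF4 and YM2. The log2 fold change was -2.16 over both sexes (SE 0.84, edgeR adjusted p = 0.213), and -1.37 without YM2 (edgeR adjusted p = 0.465).

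Within females, edgeR called 0 of the 200 members, where 0.0323% of all genes tested were called, and 3 members had an unadjusted p under 0.05 against 14.5% of all genes. DESeq2 called 0 of 189 members (2.58% of all genes), with 4 at that unadjusted p (15.3% of all genes). ENSMFAG00000044253 and ENSMFAG00000003868 again had the smallest p in each direction, with log2 fold changes of 4.62 (SE 1.44, edgeR adjusted p = 0.188) and -3.44 (SE 1.25, edgeR adjusted p = 0.235). Without OF1 the first of these was 1.09. The median log2 fold change of the members was 1.42 with all libraries and -1.17 without OF1.

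Within males, edgeR called 0 of the 200 members, where 0.0129% of all genes were called, and 2 members had an unadjusted p under 0.05 against 9.06% of all genes. DESeq2 called 0 of 189 members (0.389% of all genes), with 4 at that unadjusted p (10.1% of all genes). ENSMFAG00000003903 had 512 CPM in OM3 and 2.21, 0.119 and 0 CPM in OM1, OM2 and OM4, against 0.171 to 1.26 CPM in young males. Old males were higher by 7.58 log2 units (SE 2.92, edgeR adjusted p = 0.509), and by 0.29 without OM3. ENSMFAG00000042602, high in YM4, had -7.32 (SE 3.28, edgeR adjusted p = 0.544), and -2.68 without YM4. The median log2 fold change of the members was 1.19, and -0.046 without OM3.

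The interaction asks whether the age difference was unlike in males and females, and is given as the male value less the female value. edgeR called 0 members (0% of all genes tested were called), with 0 members at an unadjusted p under 0.05 against 6.37% of all genes. DESeq2 called 0 of 189 members (0.387% of all genes), with 1 at that unadjusted p (6.92% of all genes). The smallest p in each direction belonged to ENSMFAG00000031798 (5.19, SE 3.03, edgeR adjusted p = 0.852) and ENSMFAG00000038029 (-3.49, SE 1.76, edgeR adjusted p = 0.805). ENSMFAG00000031798 had 344 CPM in OM3 against 0 to 4.51 CPM in the other old males, and its difference was -0.58 without OM3. ENSMFAG00000038029 had 859 CPM in OF3 and 837 CPM in YM1, against 4.89 to 566 CPM elsewhere, and its difference was -1.91 without OF3 and -2.03 without YM1.

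Males and females were compared over both ages. edgeR called 0 of the 200 members, where 0.0323% of all genes were called, and 3 members had an unadjusted p under 0.05 against 6.3% of all genes. DESeq2 called 0 of 189 members (0.214% of all genes), with 2 at that unadjusted p (6.94% of all genes). ENSMFAG00000020465 was higher in males by 3.41 log2 units (SE 1.10, edgeR adjusted p = 0.676). It had 297 CPM in OM1 and 374 CPM in YM1, while the other 6 male libraries lay between 6.47 and 13.7 CPM and the 8 female ones between 1.41 and 19.9 CPM. Its difference was 1.77 without OM1 and 1.88 without YM1. ENSMFAG00000044253 was lower in males by -2.50 log2 units (SE 1.0, edgeR adjusted p = 0.781), and by -0.72 without OF1. The median log2 fold change of the members was -0.81, and 0.53 without OF1.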

How the data were processed

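RNA was extracted with TRIzol and libraries were made with the NEBNext Ultra RNA kit, per the labels' protocols. The deposited files hold the authors' whole-number counts per gene, not normalized. What aligned and counted the reads, and on which build and annotation, is not given in the sources used here. Every file ends with 5 summary entries, left out of library sizes and tests. Reads assigned to no feature made up 23.1% to 29.9% of a library and ambiguous reads 1.45% to 1.86%. The kit does not mark strand, so overlapping genes on opposite strands cannot be told apart, and genes that have near-identical copies are uncertain.

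Members were chosen by the rule given in the report. The members and lists were chosen with earlier results of these data known. Members were clustered by average linkage on 1 minus the Pearson correlation of their deviations, cut at a distance of 0.5, with SciPy 1.17.1. Tests used edgeR 4.0.16 in R 4.3.3 on all 16 libraries (filterByExpr, TMM, glmQLFit with a mean per group), with Benjamini-Hochberg adjustment over 15472 genes and calls at 0.05. The standard error is the log2 fold change divided by the square root of F. CPM in the text were not scaled by TMM factors. DESeq2 1.42.0, RLE factors, no count filter, a replicate block and omitted libraries were alternatives. Both procedures were run on simulated counts as a check of the code. In the simulation for edgeR, genes varied less within groups than the members do, so it does not measure what could be detected among the members. In all 24 within-group pairs the libraries differed beyond counting error (chi-square at least 15.6 per degree of freedom). The genes named were those of highest SD, nearest to the mean of the first block, at the limit, and of smallest p in each direction of a comparison. Others are marked where named. The marker lists laid down beforehand were not used, since no identifier has a symbol.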

Additional observations from a re-analysis of the deposited data

Results flagged for a closer look

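Dixon's test compares the gap between an extreme library and its nearest neighbour with the range of the group. It picked out 24 of 64 groups of 4 libraries (37.5%). Its rate of about 1 in 20 holds for normally distributed values. Gene levels and the share of counts were tested without logarithms and are skewed. Several of the genes share 1 pattern and all members were chosen for spread within groups. The 37.5% is therefore a description and cannot be set against 1 in 20. The mean log2 level of the first block was not picked out in any group. For the share of counts taken by the first block it picked out OF1 (2.56%, others at most 0.223%). OF1 was also picked out for ENSMFAG00000036542 (547 CPM, others at most 22.7), ENSMFAG00000032445 (48.8 CPM, others at most 3.10) and ENSMFAG00000032283 (78.5 CPM, others at most 9.73). The same held for OF1 in ENSMFAG00000044253 (320.2 CPM), ENSMFAG00000003903 (179 CPM), ENSMFAG00000031798 (105 CPM) and ENSMFAG00000037984 (31.1 CPM).

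OM3 was picked out for ENSMFAG00000036542 (1568 CPM), ENSMFAG00000003903 (512 CPM), ENSMFAG00000031798 (344 CPM) and ENSMFAG00000037984 (25.1 CPM), and YM1 for ENSMFAG00000032445 (8.58 CPM, other young males at most 2.27). For ENSMFAG00000042602 each group had 1 library picked out, OF3 (151 CPM), OM1 (1.38 CPM), YF1 (187 CPM) and YM4 (262 CPM). For ENSMFAG00000020465 these were OM1 (297 CPM) and YM1 (374 CPM). In the second block OM1 and YM3 were picked out for ENSMFAG00000040359 (105 and 56.3 CPM) and for ENSMFAG00000030746 (99.4 and 34.9 CPM). YF1 was picked out for the mean log2 level of that block (4.60, other young females at most 3.49).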

How the results depend on the processing

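No member that had an adjusted p was called in any of 5 comparisons under any of 21 alternative settings. Over the 20 edgeR settings the share of all genes called ran from 0.00639% to 0.37% for age over both sexes and was at most 0.173% in the other comparisons, while DESeq2, which gave no p to 11 members, called 0.214% to 4.06%. The smallest adjusted p of any member was 0.0900, in DESeq2. The median log2 fold changes of the members did change sign. Without OF1 and OM3 together they were -0.63 for age over both sexes, -1.17 in females, -0.052 in males and 1.05 for the interaction. With single libraries left out they ran from 0.018 to 1.73 for age over both sexes, from -1.17 to 2.03 in females, from -0.046 to 2.02 in males, from -1.45 to 2.38 for the interaction and from -1.44 to 0.53 for sex. In the 10 pairs of a named gene and a comparison, 209 values kept their sign and 1 changed it, that of ENSMFAG00000031798 for the interaction without OM3 (-0.58, up to 7.77 with other single libraries left out). The list itself shared 88 genes with a list limited to a mean of 20 CPM or more, which leaves fewer low genes to enter, 127 without OF1 and OM3, and 157 to 197 with single libraries left out. The part of the sum of squares in OF1 and OM3 was 33.2% with a pseudocount of 0.5, 40.7% with 5 and 35.3% with TMM-scaled CPM. The largest block held 167 to 170 genes and the old and young lists shared 102 to 130 with single libraries left out. They shared 151 when the same genes could enter both.

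Replicate numbers did not pair the libraries. Over 24 pairs with the same number the correlation of deviations ran from -0.46 to 0.42, and 3 of 16 libraries were closest to their own number. With the replicate block 0 members were called in each comparison, and the median for the interaction was 0.84 in place of -0.20. These alternatives were added with the data in view: single libraries left out for the block size and for the old and young lists, the same genes for both lists, and the medians of the members. The median standard error of the members was 0.97 log2 units for age with the sexes joined, 1.37 among females and 1.38 among males, which limits the age differences that can be detected.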
